A study of Mus musculus with 8 samples.

Results

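The late part of cholesterol synthesis was followed in mouse liver through 9 genes, Sqle, Lss, Cyp51, Tm7sf2, Msmo1, Nsdhl, Hsd17b7, Ebp and Dhcr7. They were chosen by gene symbol, with older names brought up to date, so that Sc4mol was read as Msmo1. All 9 had a probe on the array, 10 probes in all, among 19896 named genes. Total RNA came from the livers of 3 mice labelled as knockouts of Me1, once named Mod1, and of 5 wild-type littermates. Me1 is the gene of the malic enzyme of the cytosol, which yields NADPH. Each mouse has 1 deposited column of a 2-colour array, with a liver pool of 5 wild types as the reference. The labels number the wild types 14, 15, 21, 22 and 26 and the knockouts 27, 31 and 33, and values are listed in that order throughout. The sources used here do not give strain, age, sex, feeding state or the way the Me1 allele was made.

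Cholesterol is built from squalene in the membrane of the endoplasmic reticulum. Squalene is first oxidised and closed into the ring system of lanosterol, and then methyl groups are removed and double bonds are moved or reduced until cholesterol is left. Several of the steps consume NADPH and oxygen. In liver the genes of the pathway are known targets of the transcription factor SREBP-2, which is released from the endoplasmic reticulum when membrane cholesterol is low and which acts together with the CCAAT-binding factor NF-Y and with Sp1.

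To show what lies in front of these genes, 120 bases ending just before the annotated start are printed for 5 members. Cyp51 and Nsdhl had the highest differences between genotypes, Msmo1 and Tm7sf2 lay between, and Ebp had the lowest. Sequences are from RefSeq on GRCm38.p6, read 5′ to 3′ on the strand of the gene. Capitals mark CCAAT, the core of the NF-Y site, and GGGCGG, the core of the Sp1 site, both of them on either strand.
Cyp51, chr5:4104698-4104817, minus strand: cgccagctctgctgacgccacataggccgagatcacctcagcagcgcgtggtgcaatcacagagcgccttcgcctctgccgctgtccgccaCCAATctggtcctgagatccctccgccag
Nsdhl, chrX:72918401-72918520, plus strand: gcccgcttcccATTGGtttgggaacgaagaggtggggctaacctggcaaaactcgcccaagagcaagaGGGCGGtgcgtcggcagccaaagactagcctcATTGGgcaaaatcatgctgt
Msmo1, chr8:64733579-64733698, minus strand: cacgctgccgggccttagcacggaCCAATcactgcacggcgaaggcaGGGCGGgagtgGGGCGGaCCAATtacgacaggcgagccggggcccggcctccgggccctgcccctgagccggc
Tm7sf2, chr19:6067851-6067970, minus strand: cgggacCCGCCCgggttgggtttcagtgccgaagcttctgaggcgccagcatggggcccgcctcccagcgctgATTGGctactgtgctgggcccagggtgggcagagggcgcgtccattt
Ebp, chrX:8193513-8193632, minus strand: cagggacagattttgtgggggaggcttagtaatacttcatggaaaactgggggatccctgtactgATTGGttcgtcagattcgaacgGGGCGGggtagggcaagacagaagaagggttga

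Of the 9 members, 8 had a promoter window in the RefSeq table, from 250 bases before to 50 bases after the start. Sqle had none there. Each of the 8 held CCAAT or its reverse complement ATTGG, and each held GGGCGG or CCGCCC. In Dhcr7, which has 3 windows, both motifs stood in the third. Over all 27025 genes with a window, 41.1% held CCAAT, 38.2% held GGGCGG and 14.5% held both in 1 window. Both in 1 window were found in 4 of 7 mevalonate pathway genes and in 2 of 4 other sterol-forming genes. They were also found in 5 of 10 genes of SREBP control and sterol uptake. The counts were 4 of 13 for cholesterol storage, efflux and breakdown and 0 of 4 for the supply of electrons. The nearest upstream CCAAT match began 12 bases before the start in Hsd17b7, 20 in Nsdhl, 29 in Cyp51 and 47 in Tm7sf2. It began 49 bases before the third start of Dhcr7, 55 in Ebp and Msmo1 and 62 in Lss. Nsdhl also held matches after the start, at bases 9 and 35. The letters TCACNCCAC are a form of the sterol regulatory element that SREBP binds. They were found in none of the 8 members, against 1.44% of all genes with a window. At so low a share, their absence from 8 genes is not informative, and other forms of the element were not sought. The E-box CACGTG was found in Hsd17b7 and Dhcr7, against 8.09% of all genes with a window. No matches of different motifs overlapped in the members. A match is a run of letters and not a measured binding site.

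Every value below is the log2 ratio of a mouse to the wild-type pool, turned from the deposited log10 ratio. The spread (SD) of the ratios over 39556 probes was 0.127 to 0.291 in the wild types and 0.185 to 0.273 in the knockouts, and it was widest in wild-type mouse 22 and knockout mouse 33. The weight that limma gave each array from its spread about the group mean ran from 0.195 (mouse 22) to 2.71 (mouse 14). Each array is a different mouse, so a noisy array and a liver unlike its group cannot be told apart here. Spot brightness was not used here. All 8 columns carry the same dye labels and the same order of names in their titles, and no source used here states the logarithm's base or which way the ratio runs. If the pool stands for the 5 wild types, their mean ratio should be 1. Over the member probes that mean was between 0.964 (Cyp51) and 1.02 (Ebp) with values read as mouse over pool. For the Sqle probe of widest range it was 1.01 as read and 1.56 with the sign turned. This settles how the wild-type columns read only if the pool was made of mice like these, and it does not reach the knockout columns, whose direction is not settled. Of all array pairs, 3 correlated below -0.3 over all probes (-0.459 for wild-type mice 22 and 26, -0.394 for wild-type 14 with knockout 33, and -0.322 for wild-type 14 and 22). Only 1 of these pairs holds a knockout, and mice set against a pool of such mice can correlate negatively, so these values do not decide the direction. With the sign of the knockout columns turned, the member differences given here would run from -1.17 to -0.51, and the knockouts would lie below all wild types in all 9 members.

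The Me1 probe did not separate the genotypes. Its log2 ratio was -0.31 ± 1.07 (SD, n = 5) in the wild type and -0.22 ± 0.90 (SD, n = 3) in the knockout. It read 0.82, -0.64, -0.70, -1.73 and 0.70 in the wild types and 0.82, -0.81 and -0.68 in the knockouts. As read, knockout mouse 27 thus stood level with the highest wild type, mouse 14. The sources used here do not place the probe within the gene, and a probe outside the altered part checks nothing about the labels.

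Read as mouse over pool, transcripts of all 9 sterol-forming enzymes were more abundant on average in the 3 knockout livers than in the 5 wild-type livers, but no member passed adjusted p 0.05 over all features in limma. The differences ranged from 0.45 (Ebp) to 1.54 (Cyp51) on the log2 scale, which is 1.36-fold to 2.91-fold, with a median of 1.05. Over all named genes the median difference was -0.0003, and 49.9% were above 0. Of all 36169 features, 0.0276% passed (10 features), and the adjusted p of the members ran from 0.134 (Ebp) to 0.412 (Sqle). At an unadjusted p of 0.05, 9 of 9 members were higher, against 4.26% of all features (9.28% in either direction). In 7 of the 9 members, all 3 knockouts lay above all 5 wild types, as in 4.35% of all features. With the knockout columns turned, 8 of 9 members were lower at an unadjusted p of 0.05, against 5.52% of all features (11.5% in either direction), and in 9 of 9 all knockouts lay below all wild types, as in 7.05%. None then passed adjusted p 0.05 in limma (0.0221% of all features did), with the members between 0.0805 and 0.448. The members were chosen with earlier results of these data known, so these shares are a description. In RNA of whole liver, a different share of a cell type and a different amount of RNA per cell cannot be told apart.

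**Figure D1:**
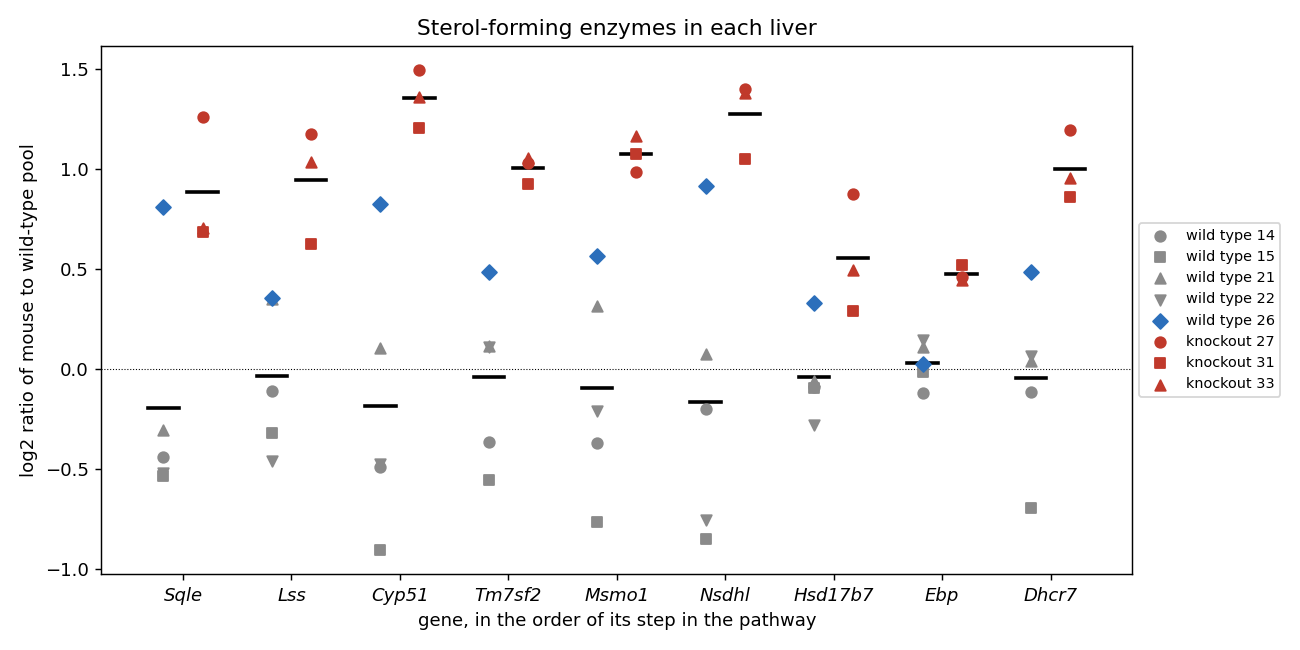
Log2 ratio of each mouse to the wild-type pool (vertical axis) for the 9 enzymes in pathway order (horizontal axis). Grey symbols are wild-type mice, with mouse 26 in blue, red symbols are knockouts, and short black lines are group means; as read, the knockouts lie above all wild types except in Sqle and Hsd17b7, where mouse 26 reaches into their range.

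Sqle encodes squalene epoxidase, which adds the first oxygen and is one of the controlled steps of the pathway. Its 2 probes gave different pictures. The probe 10018184871 read -0.92, -1.01, -0.60, -1.04 and 1.51 in the wild types and 2.35, 1.31 and 1.60 in the knockouts. On that probe 4 wild types lay far below the knockouts, and mouse 26 lay within the knockout range. The other probe, 10024420393, stayed between -0.06 and 0.11 in the wild types and between -0.18 and 0.17 in the knockouts, so that it separated neither the genotypes nor mouse 26. The difference was 2.16 ± 0.59 (SE), or 4.48-fold, on the first probe (95% confidence interval 0.81 to 3.52, adjusted p = 0.389 in limma over single probes) and 0.00 ± 0.08 on the second (adjusted p = 0.997). Averaged over both, as in the fit by gene, it was 1.08 ± 0.32 (adjusted p = 0.412). The range between the probe differences, 2.17, was the widest among the 2869 genes with more than 1 probe, whose median range was 0.10. Probe sequences were not used here, so which part of Sqle, or which other transcript, each probe reads is not known.

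**Figure D2:**
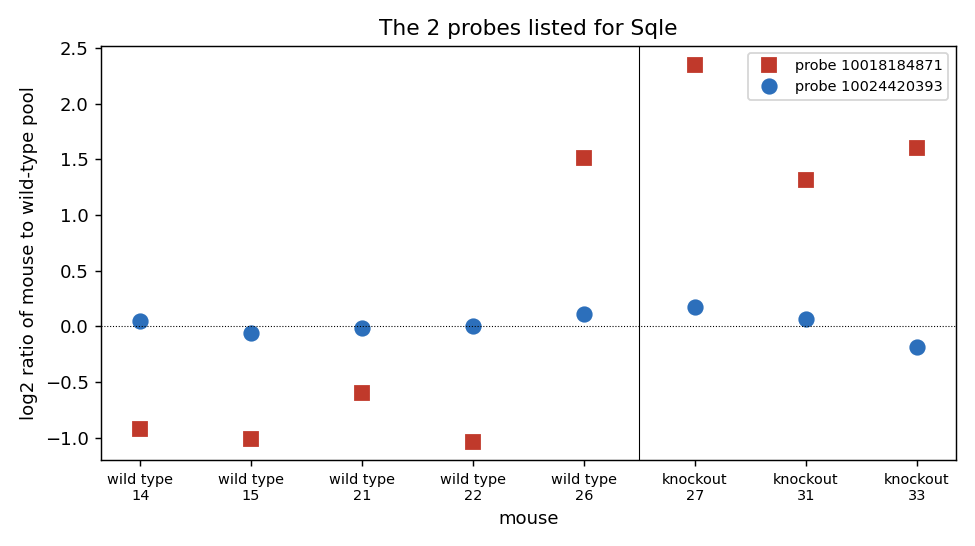
Log2 ratio to the pool (vertical axis) of the 2 Sqle probes in each of the 8 mice (horizontal axis), wild types left of the line and knockouts right of it. One probe runs from -1.04 to 2.35 while the other stays between -0.18 and 0.17.

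Lss encodes lanosterol synthase, which closes the epoxide into lanosterol, the first sterol. The wild types read -0.11, -0.32, 0.35, -0.46 and 0.36, and the knockouts 1.18, 0.63 and 1.04. The groups did not overlap, and the lowest knockout lay 0.27 above the highest wild type. The difference was 0.98 ± 0.22 (SE; 95% confidence interval 0.47 to 1.49, adjusted p = 0.315 in limma).

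Cyp51, the cytochrome P450 that removes a methyl group from lanosterol and a target of azole antifungals in fungi, had the highest difference of the 9. It read -0.49, -0.90, 0.11, -0.47 and 0.83 in the wild types and 1.50, 1.20 and 1.36 in the knockouts. The knockouts were close together (SD 0.15) while the wild types were spread over 1.73 (SD 0.67), and the groups did not overlap. The difference was 1.54 ± 0.35 (SE), or 2.91-fold (interval of the fold 1.67 to 5.07, adjusted p = 0.315 in limma).

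Tm7sf2 encodes a sterol reductase that saturates the double bond left by Cyp51. The wild types read -0.37, -0.55, 0.12, 0.11 and 0.49, and the knockouts 1.03, 0.93 and 1.06. All 3 knockouts stood 0.44 or more above the highest wild type, the widest such gap among the 9 members. The difference was 1.05 ± 0.22 (SE; adjusted p = 0.295 in limma). Lbr, the lamin B receptor of the nuclear envelope, carries the same reductase activity in its membrane part. It stood at 0.19 ± 0.11 (adjusted p = 0.617), and its knockout value in mouse 31, -0.06, lay within the wild-type range of -0.21 to 0.12. The difference between Tm7sf2 and Lbr was not tested.

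Msmo1, Nsdhl and Hsd17b7 act in turn to strip a pair of methyl groups from the sterol ring. Msmo1, the oxidase that starts the removal, read -0.37, -0.76, 0.31, -0.21 and 0.56 in the wild types and 0.98, 1.07 and 1.17 in the knockouts. Knockouts and wild types did not overlap, and the difference was 1.17 ± 0.28 (SE; adjusted p = 0.324 in limma).

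Nsdhl, the X-linked dehydrogenase that takes off the oxidised carbon, read -0.20, -0.85, 0.08, -0.76 and 0.91 in the wild types and 1.40, 1.05 and 1.38 in the knockouts. Its wild types had the widest range of the 9 members, 1.76 or 3.39-fold between mice 15 and 26. The lowest knockout, mouse 31, lay 0.14 above mouse 26, so the groups were barely apart. The difference was 1.44 ± 0.37 (SE; adjusted p = 0.367 in limma). With quantile normalization the difference was 1.19, and the groups overlapped.

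Hsd17b7, the ketoreductase that ends each round of the removal, read -0.09, -0.10, -0.06, -0.28 and 0.33 in the wild types and 0.87, 0.29 and 0.50 in the knockouts. Mouse 31 lay 0.04 below wild-type mouse 26, and the knockouts were here more widely spread (SD 0.29) than the wild types (SD 0.22). In the other 8 members the knockout SD was the smaller. The difference was 0.59 ± 0.16 (SE), or 1.51-fold (adjusted p = 0.38 in limma).

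Ebp, the X-linked isomerase that shifts a double bond within the ring and binds the drug emopamil, had the smallest difference and the smallest spread. It read -0.12, -0.01, 0.11, 0.15 and 0.03 in the wild types and 0.46, 0.52 and 0.45 in the knockouts. The 5 wild types stayed within 0.27 of one another and the 3 knockouts within 0.07, and the groups were 0.30 apart. The difference was 0.45 ± 0.07 (SE), or 1.36-fold (interval of the fold 1.23 to 1.51). Its adjusted p of 0.134 in limma was the lowest of the 9. Ebp passed in limma with array weights (0.51, adjusted p = 0.0257), for knockout arrays against the pool (0.48, adjusted p = 0.0173) and without wild-type mouse 22 (0.48, adjusted p = 0.0464). In these settings 207, 76 and 65 of all 36169 features passed, against 10 in the main fit. Mouse 22 had the lowest array weight, so weighting arrays and leaving it out are not separate checks. The comparison with the pool sets the knockout mean against 0. It leaves out the error of the wild-type mean and of the pool. Over its 15 refits in the given direction the adjusted p ran from 0.0173 to 0.485.

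Dhcr7 reduces 7-dehydrocholesterol, which is also the precursor of vitamin D3, to cholesterol. It read -0.11, -0.69, 0.04, 0.07 and 0.49 in the wild types and 1.19, 0.86 and 0.96 in the knockouts, without overlap. The difference was 1.05 ± 0.23 (SE; adjusted p = 0.315 in limma), close to that of Tm7sf2, and the wild-type orders were alike in both, with mouse 15 lowest and mouse 26 highest.

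The 95% confidence intervals of Sqle, Lss, Cyp51, Tm7sf2, Msmo1, Nsdhl and Dhcr7 all held the values from 0.74 to 1.49. Those of Ebp (0.30 to 0.60) and Cyp51 (0.74 to 2.34) did not overlap. Unequal difference between probes is not the same as unequal change of the transcripts, and no difference between members was tested.

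**Figure D3:**
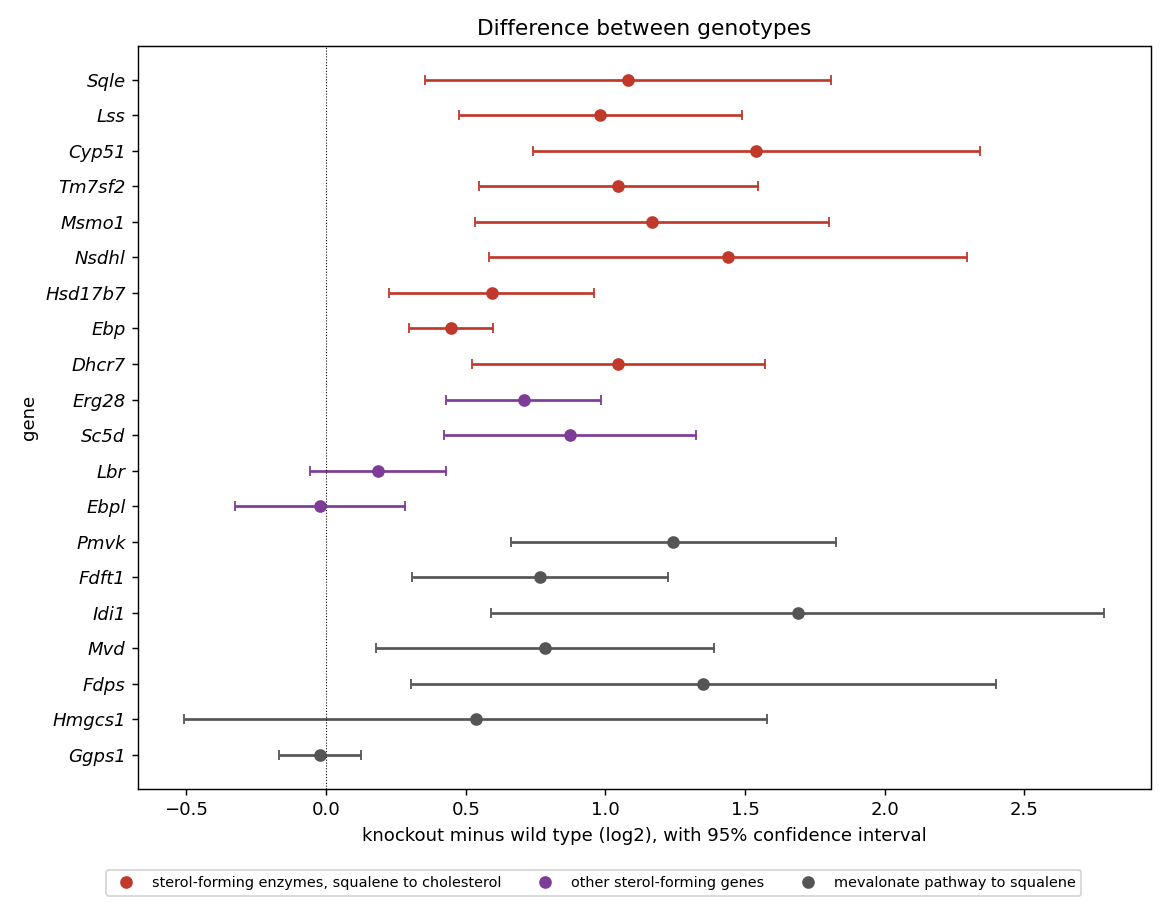
Log2 difference between knockout and wild-type means (horizontal axis) with 95% confidence intervals from limma, n = 3 and 5, for the 9 enzymes (red), other sterol-forming genes (purple) and the mevalonate pathway (grey), 1 gene per line (vertical axis). The intervals of all 9 enzymes lie above 0, while those of Lbr, Ebpl, Hmgcs1 and Ggps1 cross it.

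The wild-type littermates were themselves ordered in these genes. Mouse 26 was the highest wild type in 8 of the 9 members, all but Ebp, and it lay above the pool in all 9. Mouse 15 was the lowest in 6 of the 9. The mean over the members was -0.25, -0.53, 0.08, -0.26 and 0.53 in the wild types and 1.10, 0.80 and 0.96 in the knockouts. As read, mouse 26 stood between the other wild types and the knockouts. With the knockout columns turned, to -1.10, -0.80 and -0.96, it was the wild type farthest from them. As read, of the 27 knockout values, 3 lay below mouse 26, those of mice 31 and 33 in Sqle and of mouse 31 in Hsd17b7. All 27 lay above the other 4 wild types, but they come from only 3 mice. Mouse 26 was set apart after its values were seen. Among the knockouts, mouse 31 was lowest in 7 of the 9 members and mouse 27 highest in 6. The matching shares over all features were not computed for the counts in this paragraph, so they are a description. The labels call the wild types littermates but do not say which mice shared a litter, and they name no batch or day.

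Leaving out mouse 26 widened the difference of Cyp51 from 1.54 to 1.79, of Nsdhl from 1.44 to 1.71 and of Sqle from 1.08 to 1.33. All 9 members were then without overlap. That was fixed in advance, since all 27 knockout values lay above the other 4 wild types. The share of all features without overlap was not computed for this setting. None of the members passed adjusted p 0.05, with Sqle at 0.0585 and Cyp51 at 0.0777 in limma. With any 1 mouse left out, every member difference stayed above 0, between 0.41 (Ebp) and 1.79 (Cyp51).

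**Figure D4:**
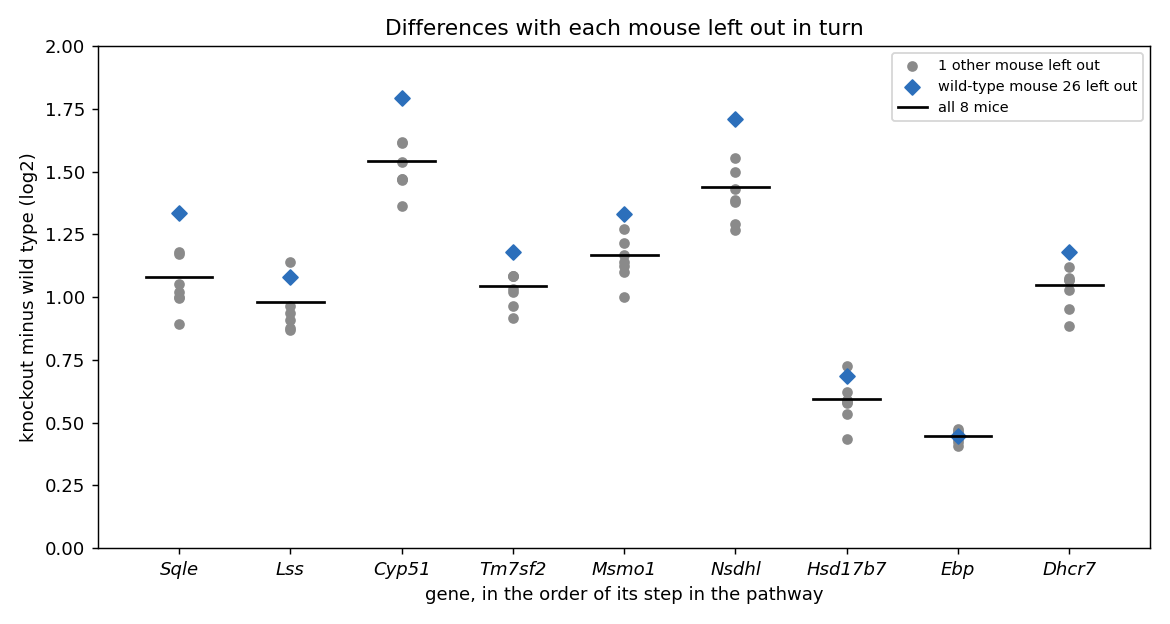
Log2 difference between knockout and wild-type means (vertical axis) for each enzyme (horizontal axis) with all 8 mice (black line), without wild-type mouse 26 (blue diamond) and without each other mouse (grey points). The highest value, 1.79, is Cyp51 without mouse 26, and the Ebp values stay between 0.41 and 0.48.

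Other genes of sterol formation with a probe were Sc5d, Erg28, Lbr and Ebpl, 4 of 6 listed. None passed adjusted p 0.05 in limma (2 higher at an unadjusted p of 0.05, against 4.26% of all features). In 2 all knockouts lay above all wild types, as in 4.35% of all features. Sc5d, the desaturase whose product Dhcr7 reduces, read 0.84, 0.73 and 1.06 in the knockouts against a wild-type range of -0.46 to 0.37, a difference of 0.87 ± 0.20 (SE; adjusted p = 0.315 in limma). Erg28, known in yeast as a scaffold for the enzymes that remove the methyl groups, read 0.67, 0.72 and 0.74 against -0.34 to 0.21 (0.71 ± 0.12, adjusted p = 0.19). Erg28 passed in limma with array weights (adjusted p = 0.0461) and for knockout arrays against the pool (0.0412). In these settings 207 and 76 of all 36169 features passed. Ebpl, a relative of Ebp, stood at -0.02.

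Sqle, Cyp51, Msmo1 and Sc5d take electrons from cytochrome P450 reductase or from cytochrome b5 and its reductase. Of 6 genes of this supply, 3 were above and 3 below 0, with a median difference of 0.01, and none passed (0 at an unadjusted p of 0.05) or was without overlap. Cyb5r3, the cytochrome b5 reductase, stood at 0.32 ± 0.16 (SE; adjusted p = 0.578 in limma). Its knockouts, 0.41, 0.16 and 0.39, lay below wild-type mouse 26 at 0.43. Cyb5b stood at 0.21 ± 0.16 (adjusted p = 0.707) and Pgrmc1, a haem-binding partner of P450 enzymes, at -0.09 ± 0.10 (adjusted p = 0.792).

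Of 7 measured mevalonate pathway genes, which make squalene, 6 were above 0 and none passed. At an unadjusted p of 0.05, 5 were higher, against 4.26% of all features. In 3 all knockouts lay above all wild types, as in 4.35% of all features. Pmvk, the second kinase of the pathway, stood at 1.24 ± 0.25 (SE; adjusted p = 0.29 in limma), Fdft1, which joins farnesyl units into squalene, at 0.77 ± 0.20 (adjusted p = 0.367) and Idi1 at 1.69 ± 0.48 (adjusted p = 0.398). In 4 of the 7, Hmgcs1, Mvd, Idi1 and Ggps1, mouse 26 lay above the lowest knockout, as in Sqle and Hsd17b7. In Idi1 it read 1.22 against a lowest knockout of 1.10, in Mvd 0.62 against 0.53, and in Hmgcs1 0.97, above all 3 knockouts (0.72, 0.24 and -0.01).

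Among 13 measured genes of SREBP control and sterol uptake, 7 were above and 6 below 0, with a median of 0.03, and none passed. At an unadjusted p of 0.05, 3 were higher and 1 lower, against 9.28% of all features in either direction. Scap, the escort that carries SREBP to the Golgi, read 0.28, 0.26 and 0.24 in the knockouts and between -0.10 and 0.17 in the wild types (0.24 ± 0.07 SE, adjusted p = 0.401 in limma). Stard4, a sterol carrier, stood at 0.77 ± 0.23 (adjusted p = 0.416) and Insig1, which holds Scap back, at 0.67 ± 0.23 (adjusted p = 0.479). The Insig1 groups overlapped, through wild-type mouse 21 at 0.54. Insig2, its relative with the same action on Scap, was the 1 lower gene and is named after its values were seen. It stood at -0.67 ± 0.25 (adjusted p = 0.499), with knockouts at -0.23, -1.05 and -0.85 and overlap through wild-type mouse 22 at -0.67. Of 18 genes for storage, efflux and breakdown of cholesterol, 7 were above and 11 below 0, with a median of -0.07, and none passed. At an unadjusted p of 0.05, 1 was higher and 3 lower, against the same 9.28% of all features. Ch25h, a cholesterol hydroxylase of the endoplasmic reticulum, stood at -0.56 ± 0.18 (adjusted p = 0.435), Cyp27a1, the mitochondrial sterol hydroxylase of bile acid synthesis, at 0.54 ± 0.19 (adjusted p = 0.48) and Soat1, which esterifies cholesterol, at -0.26 ± 0.10 (adjusted p = 0.508).

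With the knockout columns turned, none of the genes in these lists passed either. Of the mevalonate genes 7 of 7 were then below 0, of the other sterol-forming genes 3 of 4, of the electron supply 4 of 6, of SREBP control and uptake 7 of 13 and of storage, efflux and breakdown 7 of 18.

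The genes most like the 9 enzymes over the 8 mice were sought among 19887 other named genes by the mean absolute log2 difference from the members' mean profile. The closest 10 were Fdft1 (0.12), Mvd (0.14), Acss2 (0.14), Pmvk (0.14), Sc5d (0.15), Fads1 (0.16), Camk1d (0.17), Stard4 (0.18), Mmab (0.19) and Cystm1 (0.19), where the median over all candidates was 0.57. Of these, 5 are in the pathway lists above. The measure is the same with the knockout columns turned. Since the genes were chosen for a profile in which knockouts and wild types stand apart, their differences and lack of overlap follow from the choice and are a description. Acss2, which makes acetyl-CoA from acetate, read -0.08, -0.31, 0.06, -0.14 and 0.34 in the wild types and 1.30, 0.67 and 1.02 in the knockouts. Its difference was 1.02 ± 0.17 (SE; adjusted p = 0.189 in limma), and its groups did not overlap. Camk1d, a calcium-dependent protein kinase read by 2 probes, stood at 0.90 ± 0.16 (adjusted p = 0.225) and Mmab, an enzyme of vitamin B12 metabolism, at 0.76 ± 0.12 (adjusted p = 0.174). Among the members, Cyp51 and Nsdhl were closest to each other (0.13), as were Tm7sf2 and Dhcr7 (0.11).

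Of 45 markers of 8 cell types, 43 were measured and none passed adjusted p 0.05 in limma. At an unadjusted p of 0.05 there were 11 of the 43, against 9.28% of all features in either direction. The signs and ranges below are as read, and those with the knockout columns turned are not given. Ratios hold no absolute level, so the tissue label was not checked by the markers' abundance. Hepatocyte markers had 4 of 7 above 0, with medians from -0.19 to 0.17 in the wild types and 0.01 to 0.06 in the knockouts, and the lowest of these was mouse 26. Lymphocyte markers had 5 of 6 above 0, with medians from -0.06 to 0.05 in the wild types and 0.08 to 0.27 in the knockouts, without overlap. All 4 neutrophil markers were below 0 (-0.27 to 0.27 and -0.64 to -0.18), as were 6 of 7 Kupffer cell and macrophage markers (-0.30 to 0.18 and -0.14 to -0.10) and 5 of 6 stellate cell markers (-0.55 to 0.28 and -0.77 to -0.36). Endothelial markers had 3 of 5 above 0 (-0.08 to 0.06 and -0.05 to 0.09), cholangiocyte markers 2 of 4 (-0.06 to 0.03 and -0.03 to 0.03) and adipocyte markers 3 of 4 (-0.16 to 0.11 and -0.01 to 0.04). Their part in the values of the sterol-forming enzymes was not tested.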

How the data were processed

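Liver RNA, 3 Me1 knockouts and 5 wild types, was labelled with Cy3 and Cy5 after aminoallyl amplification, per the labels, and hybridised against a wild-type pool. Values are deposited log10 ratios, 1 column per mouse, with 39556 probes and no missing value; the base and direction were inferred. The design text names a dye swap. The sources used here do not say how swapped arrays were merged, nor how background was corrected or arrays normalized.

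Values were turned to log2. Of the probes, 23283 had 1 gene symbol and 16273 none; 6594 symbols were updated through the GRCm38.p6 gene table. Probes of 1 symbol were averaged, giving 36169 features with unnamed probes kept singly. Genotypes were compared with lmFit and eBayes in limma 3.58.1 (R 4.3.3), equal weights, p adjusted by Benjamini-Hochberg over all features, and 0.05 as the threshold. The fit was tested on simulated data. Different mice are the replicates; which of them share a litter is not stated in the labels.

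The members, lists and tests were chosen with earlier results of these data known. Named genes are every member, the 3 genes of smallest p in each other list and any that passed, the 10 genes closest to the members' mean profile and the closest gene to each member. Alternatives were array medians at 0, quantile normalization, array weights, single probes, a filter on variability, robust eBayes, the knockout sign turned, knockouts against the pool, and mice left out.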

Additional observations from a re-analysis of the deposited data

Results flagged for a closer look

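In 35 genes or probes the highest and lowest wild-type values were set against the other 4 by Dixon's criterion, which chance alone passes in about 1 of 20 groups. The 3 values that stood out were all of wild-type mouse 26 and are not independent. Sqle averaged over its 2 probes read 0.81 in that mouse against -0.31 in the next, a gap of 0.832 of the group's range. Its probe 10018184871, which carries that average, alone read 1.51 against -0.60 (0.828 of the range). Rerg, a small GTPase gene and the closest gene to Sqle over the 8 mice, read 1.03 against -0.26 (0.76 of the range), and it was among the 35 only because of its likeness to Sqle in these mice.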

How the results depend on the processing

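No paired analysis was possible because the labels give no litter, batch or number that links a knockout to a wild type. In the direction given, all 135 refitted differences of the 9 members (15 alternatives each, single probes apart) were above 0. Of these, 3 passed adjusted p 0.05 in limma, all of them Ebp. Robust eBayes and the filter on variability leave a difference itself unchanged, and the comparison with the pool gives the knockout mean alone. The other refits reuse the same mice, so the count of 135 is a description and not separate evidence. On single probes the second Sqle probe gave -0.0013. With the knockout columns turned in sign, the differences were -0.69 (Sqle), -0.91 (Lss), -1.17 (Cyp51), -0.98 (Msmo1), -1.12 (Nsdhl), -0.51 (Hsd17b7), -0.96 (Tm7sf2), -0.51 (Ebp) and -0.96 (Dhcr7), with 9 members without overlap. Members passing numbered 0 of 9 in the main comparison, 1 with array weights, 1 for knockouts against the pool and 0 to 1 with 1 mouse left out. Pathway list genes passing numbered 0, and 1 with array weights and against the pool, Erg28 in both. Features passing numbered 10 (3355 at an unadjusted p of 0.05), 6 with quantile normalization, 207 with array weights, 16 as single probes, 22 without the less variable features, where fewer (18084) were tested, 76 against the pool, 19 without mice 22 and 33, and 6 to 65 with 1 mouse left out: 65 without mouse 22, 18 without 26, 17 without 27 and 6 without 14. Apart from these the cause of the shifts was not tested. How far spot brightness limits these values was not tested.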

Other observations

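Some members were closest, over the 8 mice, to genes outside sterol synthesis. These genes were chosen for that likeness, so their differences between genotypes follow from the choice. Qdpr, which regenerates tetrahydrobiopterin, lay 0.07 from Ebp on average and read 0.34, 0.36 and 0.42 in the knockouts against -0.10 to 0.17 in the wild types, a difference of 0.36 ± 0.06 (SE; adjusted p = 0.213 in limma). Scpep1, a serine carboxypeptidase, lay 0.10 from Hsd17b7 (0.56 ± 0.16, adjusted p = 0.412), and Acss2 lay 0.11 from Lss. Rerg lay 0.19 from Sqle (0.85 ± 0.35, adjusted p = 0.52), and its highest value of all, 1.03, was that of wild-type mouse 26.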
